A study of Mus musculus with 8 samples.

Results

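The cytosolic ribosomal proteins are the protein parts of the ribosome that translates mRNA outside the mitochondria. They were followed in CD4-negative CD8-negative cells of the mouse thymus lineage, taken from the thymus or, after they had left it, from the spleen, with and without 2,3,7,8-tetrachlorodibenzo-p-dioxin (TCDD). Members were the genes whose symbol on the array is Rpl or Rps followed by a number, together with Rplp0, Rplp2 and Rpsa. Kinases of the Rps6k family, pseudogenes marked -ps and probe sets that carry several gene symbols were left out, and where a gene had several probe sets the brightest on average stood for it. This gave 48 genes of 12394 measured, 26 of the large subunit (Rpl) and 22 of the small subunit (Rps). Membership followed the gene name and not level or response, but the family was chosen with earlier results of these data known. A further 26 ribosomal protein genes, among them Rplp1 and Rpl5, are carried only by probe sets with several symbols and are not members.

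Female C57BL/6 mice, 6 to 8 weeks old, received an intraperitoneal injection of corn oil with 10 µg/kg TCDD or with nothing added. After 5 days the fluorescent dye FITC was injected into the thymus, and 24 h later FITC-positive cells negative for CD4 and CD8 were sorted from spleen (emigrants) or thymus (thymocytes). There were 4 groups of 2 Affymetrix arrays each, emigrants with TCDD, emigrants with oil, thymocytes with TCDD and thymocytes with oil. The labels name no altered gene in any group, all mice had the dye injection, and RNA of every sample was amplified before hybridisation. Nothing in the labels ties the 2 arrays of a group to different mice or pools. The p-values therefore describe the spread among these arrays, which may be technical, and the small number of arrays limits the precision. The groups follow the sample titles. For emigrants oil 1, however, the Treatment field names TCDD, for emigrants oil 2 it reads Dioxane 2, and the tissue of some emigrant arrays is given as thymus. The free-text description of both arrays of thymocytes with TCDD mentions corn oil and no TCDD, while their Treatment field names TCDD.

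TCDD activates the aryl hydrocarbon receptor, a ligand-dependent transcription factor whose activation shrinks the thymus. Cyp1b1, a receptor target, was at 6.87 and 8.36 in emigrants with TCDD, against 4.69 and 6.25 in emigrants with oil, and at 8.46 and 9.59 in thymocytes with TCDD, against 4.62 and 5.04 in thymocytes with oil (log2 level). Ptcra, the invariant chain of the pre-T-cell receptor that immature thymocytes use, fell in emigrants by 3.44 on the log2 scale (limma adjusted p = 0.0419), while 0 of all genes passed the threshold when any 1 of the thymocyte arrays was left out. Cd3d, Cd3e, Cd3g, Cd247 and Thy1, used here as markers of the T lineage, were above the array median on all 8 arrays. The 18S ribosomal RNA control probe sets separated emigrants TCDD 1 and emigrants oil 1, at 7.07 to 7.94, from the other 6 arrays, at 3.95 to 6.35.

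Each ribosome has a small subunit that reads the mRNA and a large subunit that joins amino acids. The genes for its proteins are among the most strongly transcribed in dividing cells, and their mRNAs typically begin at the 5′ end with a short run of pyrimidines, the terminal oligopyrimidine motif, through which the kinase mTORC1 and the RNA-binding protein LARP1 control their translation together. In mouse thymocytes, loss of Rpl22 stops development of the αβ T-cell lineage, so a ribosomal protein can have a role of its own in this tissue.

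The sequence around the transcription start is shown for members that the comparisons below turn on, because the start of the mRNA is where the family shares its control motif. Each window runs from 15 bases before to 15 bases after the start that RefSeq annotates on the GRCm38.p6 assembly, 5′ to 3′ on the strand of the gene, and capitals mark the longest run of at least 6 pyrimidines.
Rps6: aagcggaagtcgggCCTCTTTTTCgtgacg
Rpl13a: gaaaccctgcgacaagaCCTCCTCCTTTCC
Rpl22l1: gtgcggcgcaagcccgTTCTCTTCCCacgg
Rplp2: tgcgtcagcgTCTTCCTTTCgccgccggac
Rpl4: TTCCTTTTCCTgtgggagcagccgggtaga
Rpl11: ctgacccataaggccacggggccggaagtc
Rplp0: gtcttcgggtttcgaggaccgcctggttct
Rpl7l1: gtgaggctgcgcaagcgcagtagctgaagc
The windows lie at chr4:86857353-86857382 on the minus strand for Rps6, chr7:45128731-45128760 on the minus strand for Rpl13a, chr3:28805493-28805522 on the plus strand for Rpl22l1, chr7:141447636-141447665 on the plus strand for Rplp2, chr9:64173372-64173401 on the plus strand for Rpl4, chr4:136053379-136053408 on the minus strand for Rpl11, chr5:115559452-115559481 on the plus strand for Rplp0 and chr17:46782642-46782671 on the minus strand for Rpl7l1. In Rps6, Rpl22l1 and Rplp2 the run crosses or directly follows the annotated start. In Rpl4 it lies wholly before it, in Rpl13a it begins at base 3 of the transcript, and Rpl11, Rplp0 and Rpl7l1 have no run of this length in the window. Among the members shown, at the probe sets used, Rps6 with the run and Rpl11 without it both had lower levels in emigrants than in thymocytes on all arrays, and Rpl13a, with the run, had higher ones. Other probe sets above the array medians gave log2 differences of -0.09 to 0.22 for Rps6, 0.25 for Rpl11 and -0.58 to 0.67 for Rpl13a.

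RefSeq start regions, from 250 bases before to 50 bases after the start, matched 42 of the 48 members with 50 regions. A run of at least 6 pyrimidines within 15 bases of the start stood in 54% of the members' regions, against 29.2% of all 32851 regions. CCGGAAG, the core bound by ETS-family factors, stood on either strand in 42% of the members' regions and 8.86% of all regions. GCGTG, the core of the aryl hydrocarbon receptor's recognition sequence, stood on either strand in 60% and 32.4%, and GGGCGG, a GC-box core, in 52% and 35.7%. These motifs can share bases where they meet, and the reverse of CCGGAAG can share bases with a pyrimidine run. They are matches of letters and do not show binding.

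The label of the family holds on these arrays in that most members were among the brightest probe sets. Of the 48 genes, 27 were in the top 1% of all genes by mean level over the 8 arrays and 43 were above the median gene. Rpl13a, a large-subunit protein, ranked 1 and Rps7, a small-subunit protein, ranked 2 of all genes followed by probe sets with 1 symbol. Probe sets with several symbols were outside this ranking, and some were brighter, such as those naming Rpl23 at 13.88 and Rps6 at 13.36. At the other end Rpl3l, a paralog of Rpl3 used in striated muscle, Rps4l, which RefSeq lists as a transcribed pseudogene, and Rpl39 lay below the array median in every group, and Rpl39l, the testis paralog of Rpl39, did so in some groups. For Rpl39 a probe set that names it with a second gene had a mean of 12.14, among the brightest. Differences of these 4 genes compare dim values and are given only where they end a range or turn sign. A probe set's level does not allow one gene to be ranked against another as an amount of RNA.

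The median level of the 48 genes was 10.80 and 10.74 in emigrants with TCDD, 10.63 and 10.97 in emigrants with oil, 11.39 and 11.19 in thymocytes with TCDD, and 11.49 and 11.20 in thymocytes with oil. All 4 emigrant arrays lay below all 4 thymocyte arrays, while the TCDD and oil arrays of each source overlapped. Replicate arrays of a group differed in this median with an SD of 0.173.

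**Figure D1:**
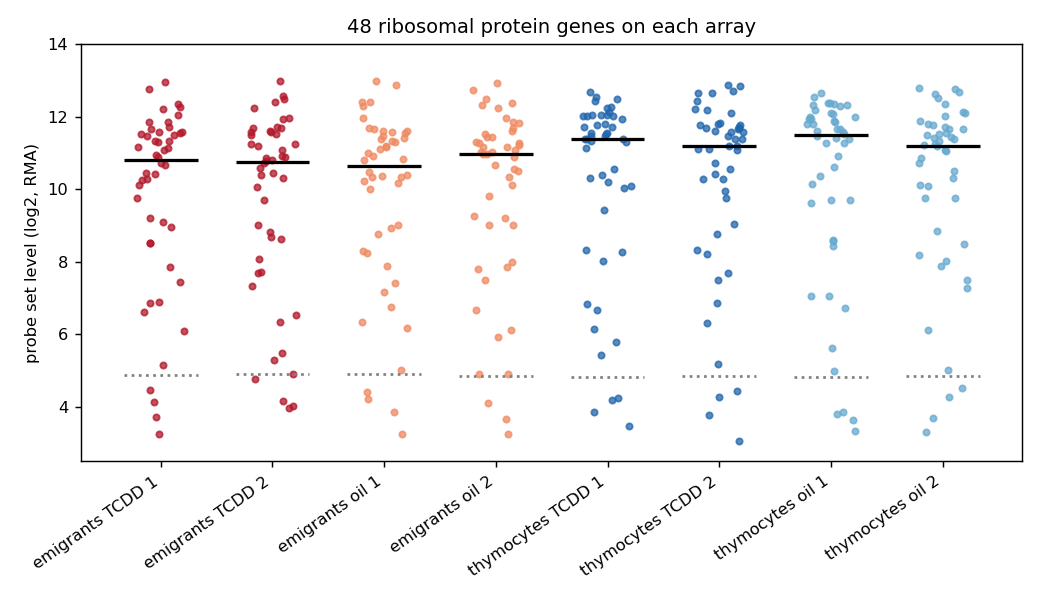
Level (log2, RMA) of the 48 ribosomal protein genes on each of the 8 arrays; each point is a gene, the black bar is the median of the 48 genes and the dotted bar the median of all probe sets on the array. The black bars of the 4 emigrant arrays, between 10.63 and 10.97, lie below those of the 4 thymocyte arrays, between 11.19 and 11.49.

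The comparison of emigrants with thymocytes asked how the ribosomal protein mRNAs differ between cells that have left the thymus and cells still in it. Of the 48 genes, 38 had a lower mean in emigrants with both treatments averaged, and their median difference was -0.33 on the log2 scale, against 0.02 over all genes. A lower mean was found for 45.2% of all genes. No member passed the limma threshold of an adjusted p of 0.05, which 0.145% of all genes passed, so no single member is reported as changed. At an unadjusted p under 0.05 there were 19 members, each with the lower mean in emigrants, which is 39.6% of members against 8.33% of all genes.

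All 4 emigrant arrays lay below all 4 thymocyte arrays for 15 members, which compares with 6.04% of all genes. One member, Rpl13a, lay the other way on all arrays, where 6.87% of all genes did. In a bulk sample, fewer cells of a type and less RNA per cell cannot be told apart.

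**Figure D2:**
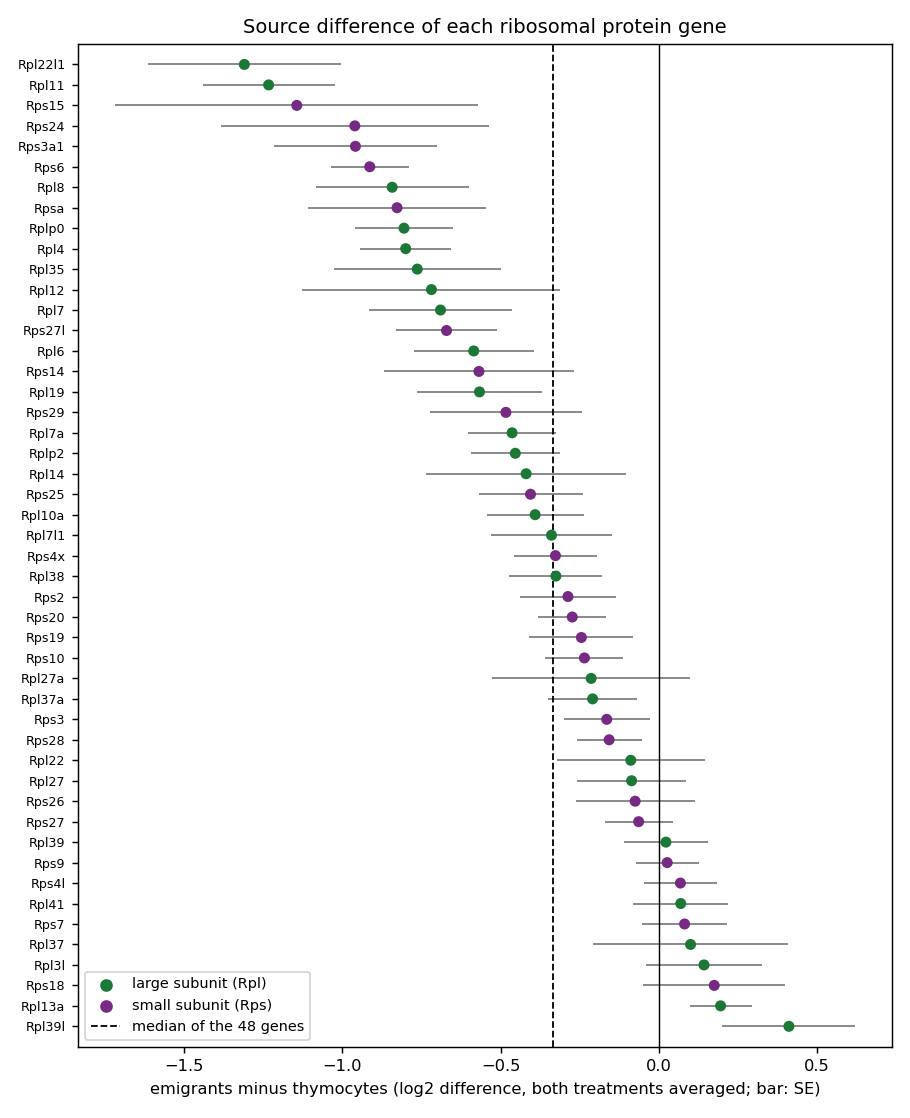
Difference between emigrants and thymocytes for each of the 48 genes (log2, both treatments averaged, horizontal bars are the SE of the limma fit), ordered from the lowest at the top; green marks the large subunit and purple the small subunit. Points run from -1.31 for Rpl22l1 to 0.41 for Rpl39l around a median of -0.33, and 38 lie left of 0. Rpl39l is one of the dim members.

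Among large-subunit members, Rpl11 had the second lowest difference. Rpl11 and Rpl5 form a particle with the 5S ribosomal RNA that can bind and inhibit Mdm2, the ubiquitin ligase of p53. Rpl11 was at 8.97 and 8.83 in emigrants with TCDD and 8.76 and 9.02 in emigrants with oil, against 10.19 and 9.95 in thymocytes with TCDD and 10.62 and 9.74 in thymocytes with oil. The lowest thymocyte array stood above the highest emigrant array, and the difference was -1.23 ± 0.21 (SE, n = 4 arrays a source, limma adjusted p = 0.0684). A probe set that names Rpl11 with another gene, dimmer at a mean of 6.10, had a difference of 0.25. Rpl5 itself is carried only by probe sets with several symbols, and they differed by -0.10 at a mean of 12.71, by -0.57 at 7.24 and by -0.54 at 3.89.

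The stalk of the large subunit, which recruits the elongation factors, is built on Rplp0 with Rplp1 and Rplp2. Rplp0 was at 10.10 and 10.31 in emigrants with TCDD and 10.32 and 10.56 in emigrants with oil, against 11.13 and 11.09 in thymocytes with TCDD and 11.42 and 10.86 in thymocytes with oil. Its sources did not overlap and differed by -0.81 ± 0.15 (SE, adjusted p = 0.0865). Rplp2 was at 10.58 to 10.95 in emigrants and 11.08 to 11.39 in thymocytes, again without overlap, with a difference of -0.45 ± 0.14 (SE, adjusted p = 0.207). Rplp1, seen only through a probe set with several symbols, differed by 0.01.

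Rpl4, whose extension lines the tunnel through which the new protein leaves, was at 10.88 and 10.89 in emigrants with TCDD and 11.16 and 11.28 in emigrants with oil, against 12.01 and 11.59 in thymocytes with TCDD and 12.10 and 11.72 in thymocytes with oil. The difference was -0.80 ± 0.14 (SE, adjusted p = 0.076), and all emigrant arrays were below all thymocyte arrays. Of 5 members around the mouth of that tunnel, Rpl19, Rpl22, Rpl35, Rpl38 and Rpl39, 4 had a lower mean in emigrants, and their median difference was -0.33. Rpl35 stood out among them without overlap, at -0.76 ± 0.26 (SE, adjusted p = 0.246). Over the 26 large-subunit members the median difference was -0.41, with 20 lower means, 12 at an unadjusted p under 0.05 and 10 without overlap in the lower direction. These are counts out of 26, where the shares of all genes were 45.2%, 8.33% and 6.04%.

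In the small subunit, Rps6 had the lowest adjusted p of any member. Rps6 is phosphorylated by the S6 kinases that act downstream of mTORC1. It was at 7.44 and 7.33 in emigrants with TCDD and 7.40 and 7.79 in emigrants with oil, against 8.32 and 8.21 in thymocytes with TCDD and 8.61 and 8.49 in thymocytes with oil. The sources did not overlap and the difference was -0.91 ± 0.12 (SE, adjusted p = 0.0542). This probe set, with a mean of 7.95, is not the brightest one for Rps6. A probe set with a mean of 13.36 that names Rps6 together with a pseudogene differed by less than 0.01 between the sources, so the result for Rps6 rests on the probe set taken.

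Rps3a1 and Rpsa are both proteins of the side of the small subunit where mRNA leaves. Rps3a1 was at 11.54 and 10.45 in emigrants with TCDD and 11.68 and 11.15 in emigrants with oil, against 12.24 and 12.21 in thymocytes with TCDD and 12.18 and 12.02 in thymocytes with oil. It differed without overlap by -0.96 ± 0.26 (SE, adjusted p = 0.157), and the lowest value was that of emigrants TCDD 2. Rpsa differed by -0.83 ± 0.28 (SE, adjusted p = 0.24), also without overlap. Rps19, which is mutated in Diamond-Blackfan anaemia in humans, was at 10.91 to 11.56 in emigrants and 11.47 to 11.77 in thymocytes and differed by -0.24 ± 0.16 (SE), with overlap. Over the 22 small-subunit members the median difference was -0.28, with 18 lower means, 7 at an unadjusted p under 0.05 and 5 without overlap in the lower direction, set against the same shares of all genes, 45.2%, 8.33% and 6.04%. Whether the subunits differ from each other was not tested.

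Several members are paralogs of another member. Rpl22l1, whose mRNA Rpl22 represses in mouse cells, had the lowest difference of all members. It was at 9.09 and 7.72 in emigrants with TCDD and 8.92 and 9.21 in emigrants with oil, against 10.10 and 10.28 in thymocytes with TCDD and 9.70 and 10.10 in thymocytes with oil. The difference was -1.31 ± 0.30 (SE, adjusted p = 0.121), without overlap. Rpl22 was at 10.07 to 10.42 in emigrants and 9.71 to 10.73 in thymocytes, with overlap and a difference of -0.09 ± 0.23 (SE). Rps27l, in humans a p53 target, was at 8.63 to 9.21 in emigrants and 9.42 to 9.76 in thymocytes, without overlap, and differed by -0.67 ± 0.16 (SE, adjusted p = 0.128). Its parent Rps27 was dim at the probe set used, at 4.91 to 5.28 in emigrants and 4.98 to 5.43 in thymocytes with a difference of -0.06, while the brighter probe set that names Rps27 with a second gene gave -0.37. Rpl7l1 differed by -0.34 ± 0.19 (SE), with overlap. Its parent Rpl7 was at 10.86 to 11.84 in emigrants and 11.99 to 12.11 in thymocytes, without overlap, and differed by -0.69 ± 0.22 (SE, adjusted p = 0.222). The difference between a paralog and its parent was not tested.

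**Figure D3:**
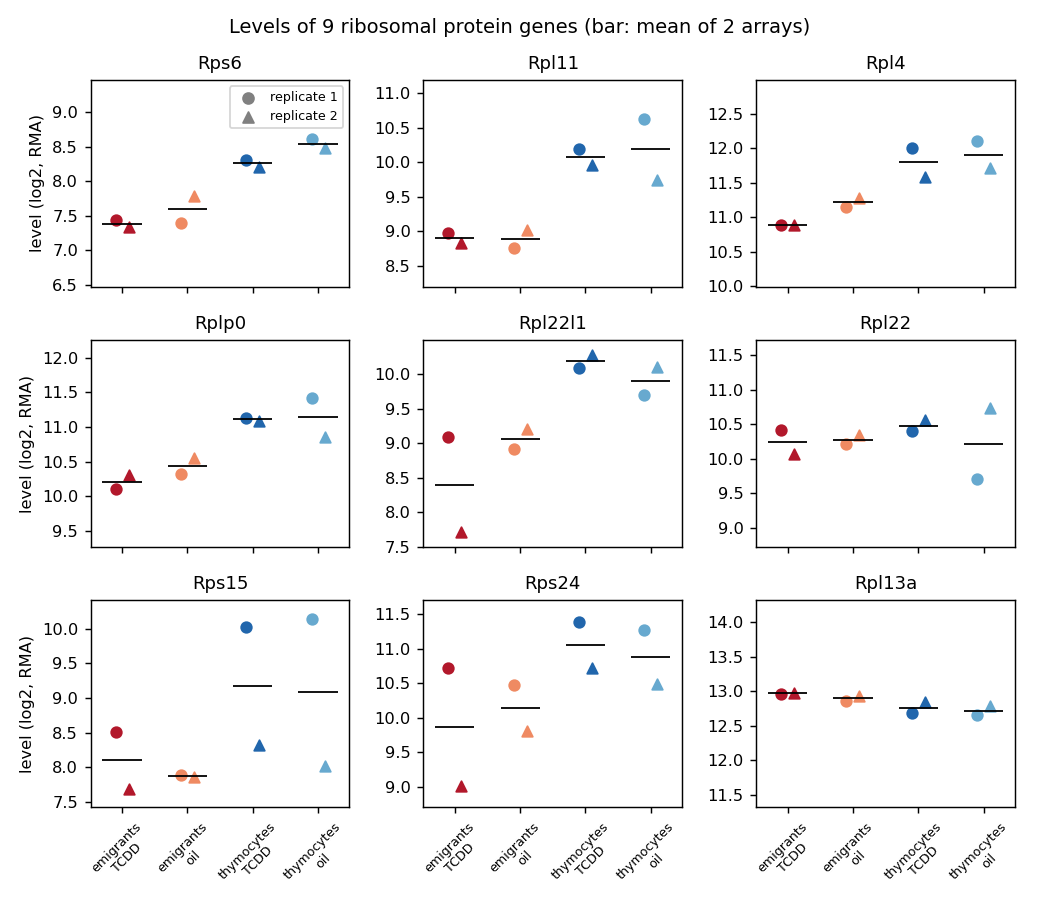
Levels (log2, RMA) of 9 members by group; each symbol is an array (circle replicate 1, triangle replicate 2) and the bar the mean of the 2 arrays. For Rps6, Rpl11, Rpl4, Rplp0 and Rpl22l1 all emigrant arrays lie below all thymocyte arrays, for Rpl13a all lie above, and for Rps15 the thymocyte arrays spread from 8.02 to 10.15.

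A few members did not have the lower mean in emigrants at the probe set used. Rpl13a, which is also used as a reference gene, was at 12.96 and 12.98 in emigrants with TCDD and 12.87 and 12.94 in emigrants with oil, against 12.68 and 12.84 in thymocytes with TCDD and 12.66 and 12.78 in thymocytes with oil. The difference was 0.20 ± 0.10 (SE, adjusted p = 0.402), and its other probe sets with 1 symbol gave 0.67, -0.17 and -0.58. Rps7 differed by 0.08 ± 0.13 (SE), Rps18 by 0.17 ± 0.22 (SE) and Rps9 by 0.03 ± 0.10 (SE), and each of these overlapped between the sources. Their other probe sets above the array medians gave -0.27 and -0.97 for Rps7, -0.49 and -0.58 for Rps9, and 0.24, 0.39 and -0.03 for Rps18. Across the 8 arrays Rpl13a ran opposite to the median of the members, with a Pearson r of -0.87, and Rpl11 ran with it at 0.97, where the members are part of that median.

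The differences were not ordered by brightness. The 16 brightest members had a median difference of -0.22, the 16 in the middle had -0.57 and the 16 dimmest had -0.37. In the middle range 15 of 16 members had the lower mean in emigrants. Rank correlation between level and difference over the 48 members was 0.08, a description over genes that share their arrays.

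The 2 treatments gave like summaries, and each has its own control arrays here. With TCDD, the median difference between emigrants and thymocytes was -0.36, 41 members had the lower mean, as 42.8% of all genes did, and 24 were lower without overlap, against 15.5% of all genes. With oil, it was -0.31, 38 had the lower mean, as 49.6% of all genes did, and 24 were lower without overlap, against 19.6% of all genes. In each, 0 members and 0 of all genes passed the adjusted threshold with limma. At an unadjusted p under 0.05 there were 10 members with TCDD, against 4.45% of all genes on the lower side, and 7 with oil, against 5.09%, all of them with the lower mean in emigrants. Of the 48 members, 36 had the lower mean under both treatments and 5 had the higher mean under both. The shares of all genes with the same sign under both were not counted. The 5 were Rpl13a, Rpl37, Rps18 and the dim Rpl39l and Rps4l. Other probe sets of Rpl37 above the array medians gave -0.88 to -0.05 with both treatments averaged.

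Other probe sets bear on how far a gene's value can be taken. There were 29 members with another probe set above the array medians, and for 19 of them every such probe set had the same sign as the one used. For Rps24 the 4 bright probe sets gave -0.95 to -1.09, and for Rps27l all 3 gave -0.67 to -0.87. All 4 of Rps24 have names ending in _x_at, as have the probe set used and the next brightest for Rps27l. Whether probe sets of this kind are independent of each other or specific to their gene was not tested. They stand for 16 members, with a median difference of -0.28. The median was -0.46 for the 16 members with names ending in _a_at and -0.28 for the 16 with neither ending. Rpl14 is represented by a probe set at -0.42, while 5 probe sets that name it with a second gene gave -1.01 to -1.65. When probe sets with several symbols that name exactly 1 ribosomal protein gene were also allowed, 74 genes could be followed. Of these, 60 had the lower mean in emigrants, with a median of -0.26, and of the 26 genes added, 20 did, with a median of -0.21.

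**Figure D4:**
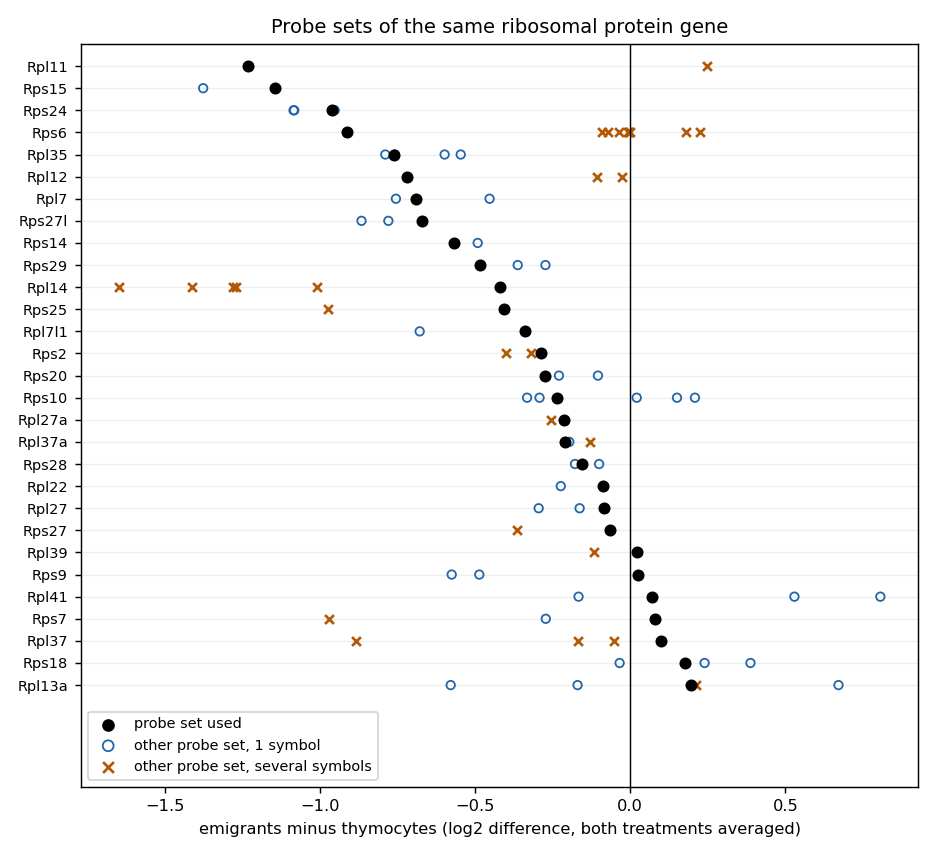
Difference between emigrants and thymocytes (log2, both treatments averaged) for every probe set above the array medians of the 29 members with more than 1; the filled point is the probe set used, open blue circles are others with 1 symbol and brown crosses those with several. The probe sets of Rps24 and Rpl35 lie together, while those of Rps6, Rpl11, Rps7 and Rpl13a spread to both sides of 0 or far from the point used.

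For some members the 2 arrays of a group differed by more than the sources did. Rps15, a protein of the small subunit's head, was at 8.50 and 7.69 in emigrants with TCDD and 7.89 and 7.86 in emigrants with oil, against 10.03 and 8.31 in thymocytes with TCDD and 10.15 and 8.02 in thymocytes with oil. In thymocytes both arrays numbered 1 were high and both numbered 2 were low, and the difference between sources of -1.14 ± 0.57 (SE, adjusted p = 0.403) overlapped. The same arrays differed in the actin control, whose 3′ probe set exceeded its 5′ probe set by 4.31 and 4.12 in thymocytes numbered 1 and by 3.06 and 3.12 in those numbered 2, and its part in the result was not tested. Emigrants TCDD 2 was the lowest of the 8 arrays for 18 members, or 37.5%, against 13.3% of all genes, and it holds the low values of Rpl22l1, Rps3a1 and Rps24, where it was at 9.02 against 9.81 to 11.39 on the others.

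Lists of genes for other parts of translation were set beside the ribosomal proteins. None of the genes in these lists passed the adjusted threshold. Of all genes, 45.2% had the lower mean in emigrants. At an unadjusted p under 0.05, 8.33% of all genes were lower and 7.26% higher. Elongation factors had a median difference between emigrants and thymocytes of -0.61 over 6 genes, with all 6 lower and 4 at an unadjusted p under 0.05, led by Eef1e1, a protein of the tRNA synthetase complex, at -1.49. Initiation factors had a median of -0.44 over 22 genes, with 15 lower and 7 at an unadjusted p under 0.05, among them Eif4h, a helper of the helicase that unwinds mRNA, at -0.92. Factors that escort ribosomal proteins or finish the subunits had a median of -0.47 over 14 genes, with 13 lower and 7 at an unadjusted p under 0.05, such as Bccip at -0.99.

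Other mRNAs that begin with the pyrimidine motif had a median of -0.39 over 8 genes. At an unadjusted p under 0.05, 3 were lower and 1 higher, against 8.33% and 7.26% of all genes. Npm1, a nucleolar chaperone, differed by -0.63, and Vim, an intermediate filament protein, by 0.63. Of the 12 measured genes of mTORC1 and its control of these mRNAs, 8 were lower with a median of -0.15. Their differences ran from -1.26 to 1.72, with 2 lower and 1 higher at an unadjusted p under 0.05. Larp1, which binds the motif, was at 7.24 to 7.96 in emigrants and 8.74 to 9.15 in thymocytes, without overlap, and differed by -1.26 ± 0.18 (SE, adjusted p = 0.0542). Myc, a transcription factor that drives ribosome production, differed by -0.96, and Eif4ebp1, a repressor of cap-dependent initiation, by 0.45. Of 5 measured genes of the p53 response, 4 were higher with a median of 0.20, led by Zmat3 at 1.40 (unadjusted p = 0.00688). Of all 12394 genes, 6790 were higher.

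Markers of cell type and cell cycle differed with the source as well, where 45.2% of all genes had the lower mean in emigrants. All 8 cell-cycle markers had the lower mean in emigrants, and their summed linear level was 3293 to 5867 in emigrants and 6547 to 8757 in thymocytes, without overlap. T-lineage markers, here the genes named above together with Ptcra, had the lower mean in 5 of 6. They summed to 1700 to 2557 in emigrants and 2938 to 3269 in thymocytes. Their differences had a median of -0.32 and ran from -3.44, for Ptcra, to 0.44. The sum without Ptcra was not taken. All 6 macrophage markers had the higher mean in emigrants, with sums of 1033 to 2375 in emigrants and 608 to 955 in thymocytes. Natural killer markers, 4 of 5 with the higher mean, summed to 523 to 3654 in emigrants and 1907 to 5359 in thymocytes. The median natural killer marker, however, was at 5.81 to 8.22 in emigrants and 4.89 to 5.62 in thymocytes, without overlap. The differences of these markers had a median of 1.64 and ran from -1.23 to 1.68. B-cell markers, 3 of 5 with the lower mean, summed to 99.8 to 139 in emigrants and 277 to 718 in thymocytes, where Cd79a, Ebf1 and Pax5 lay below the array median on every array. Granulocyte markers, 6 of 8 with the lower mean, summed to 581 to 6018 in emigrants and 1093 to 3630 in thymocytes, with the highest value on emigrants TCDD 1. Their part in the result was not tested.

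By likeness over the 8 arrays, the genes outside the family closest to the median of the members were Ptov1, Ndufb5, Banf1, Pold2 and Cdca3, each with a Pearson r of 0.99. The 8 points share their arrays and their split by source, and the ranking over 12394 genes is a description.

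The comparison of TCDD with oil asked whether the receptor's ligand altered these mRNAs in either source. In thymocytes, the median difference of the 48 genes was -0.01, against -0.01 over all genes, and 47 of the 48 lay within 0.5 on the log2 scale. Taken without sign, the median difference was 0.109 for the members and 0.111 over all genes. The share of all genes within 0.5 was not counted. With limma, 0 members and 0 of all genes passed the adjusted threshold, and at an unadjusted p under 0.05 there was 1 member, against 1.57% of all genes, or 0.629% on the lower side, where this member lay. The arrays of TCDD and oil did not overlap for 5 members, 10.4% of the family against 21.2% of all genes. For 35 of the 48 members the 95% interval of the difference lay within 1 log2 unit of 0.

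The member was Rpl7l1, a paralog of the large-subunit protein Rpl7. In thymocytes it was at 6.14 and 6.86 with TCDD, against 7.06 and 7.26 with oil. Both TCDD arrays were lower than both oil arrays, with a difference of -0.66 ± 0.27 (SE, unadjusted p = 0.047, limma adjusted p = 1), and its second probe set gave -0.60. Rps6 in thymocytes was at 8.32 and 8.21 with TCDD, against 8.61 and 8.49 with oil, a difference of -0.28 with a 95% interval of -0.71 to 0.14. At its brightest probe set, which names a pseudogene as well, the TCDD difference was 0.04.

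In emigrants, the median difference between TCDD and oil was -0.03, against 0.03 over all genes, and 46 members lay within 0.5 of 0. Taken without sign, the median difference was 0.182 for the members and 0.131 over all genes. The share of all genes within 0.5 was not counted. With limma, 0 members and 0 of all genes passed the adjusted threshold. At an unadjusted p under 0.05 there were 0 members, against 1.18% of all genes. The arrays did not overlap for 10 members, 20.8% of the family against 24.7% of all genes, with 6 lower, against 10.1% of all genes, and 4 higher, against 14.6%. The 6 lower ones were Rplp0, Rpl4, Rpl19, Rpl7a, Rps4x and Rps3, with differences between -0.34 and -0.07. The 4 higher ones were Rpl37a, Rps27, Rpl35 and Rpl13a, with differences between 0.07 and 0.35. Rpl37a, a large-subunit protein, was at 11.70 and 11.69 with TCDD, against 11.39 and 11.31 with oil. The difference was 0.35 ± 0.20 (SE, unadjusted p = 0.126), it lay between 0.311 and 0.387 with each array left out, and the gene's other probe sets gave 0.14 to 0.49. As in thymocytes, the 95% interval lay within 1 log2 unit of 0 for 35 members.

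The 2 members furthest from 0 in emigrants rested on 1 array. Rpl22l1 was at 9.09 and 7.72 with TCDD, against 8.92 and 9.21 with oil, a difference of -0.66 ± 0.43 (SE) that became 0.02 without emigrants TCDD 2. Rpl27a, a dim member, was at 6.08 and 4.77 with TCDD, against 6.17 and 5.92 with oil, a difference of -0.62 ± 0.44 (SE) that became 0.04 without that array. In both, the other TCDD array lay between the oil arrays.

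Other members far from 0 in emigrants overlapped between TCDD and oil. Rpl12 was at 6.89 and 5.49 with TCDD, against 7.16 and 6.13 with oil, and Rps14 was at 10.65 and 11.53 with TCDD, against 10.37 and 11.15 with oil. Their differences of -0.45 and 0.33 became 0.245 and -0.109 without emigrants TCDD 2. Rpl14 was at 6.87 and 6.54 with TCDD, against 6.75 and 7.49 with oil, and Rpl41 was at 11.58 and 11.97 with TCDD, against 11.40 and 11.68 with oil. With each array left out, the difference of -0.42 for Rpl14 ran from -0.783 to -0.051 and that of 0.24 for Rpl41 from 0.047 to 0.435.

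**Figure D5:**
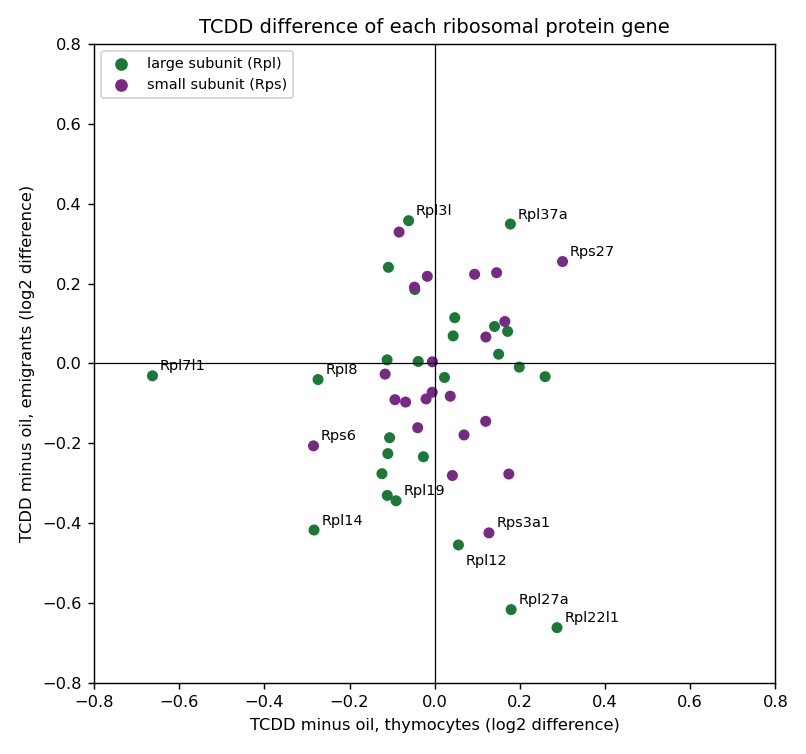
Difference between TCDD and oil for each of the 48 genes in thymocytes (horizontal axis) and emigrants (vertical axis), on the log2 scale; green marks the large subunit and purple the small subunit, and genes far from 0 are named. The points surround 0 in both directions, with Rpl7l1 at -0.66 on the horizontal axis and Rpl22l1 and Rpl27a at -0.66 and -0.62 on the vertical axis.

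Rps27 was the one member higher with TCDD without overlap in both sources. Of all genes, 9.78% were higher without overlap in thymocytes and 14.6% in emigrants, and the share with both was not counted. In emigrants it was at 5.14 and 5.28 with TCDD, against 5.01 and 4.91 with oil, and in thymocytes at 5.43 and 5.17 with TCDD, against 4.98 and 5.02 with oil. The differences were 0.26 and 0.30, neither with an unadjusted p under 0.05. Averaged over both sources the difference was 0.28 ± 0.11 (SE, unadjusted p = 0.04, limma adjusted p = 1), where 0.734% of all genes were higher at an unadjusted p under 0.05. These levels are close to the array medians. A brighter probe set that names Rps27 with a second gene, with a mean of 10.86, gave 0.29 in emigrants and 0.19 in thymocytes.

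The test of whether the TCDD difference itself differed between emigrants and thymocytes found 0 members and 0 of all genes past the adjusted threshold. At an unadjusted p under 0.05 there were 0 members, against 1.18% of all genes. The median of this difference over the members was -0.06. Rpl22l1 was furthest from 0 at -0.95 ± 0.61 (SE), with a 95% interval of -2.42 to 0.52, and Rpl7l1 was at 0.63 ± 0.38 (SE), with an interval of -0.29 to 1.55. With 2 arrays a group, the median half-width of these intervals was 0.82. For the typical member, the interval of a smaller difference between the TCDD differences would therefore include 0.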

How the data were processed

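Amplified RNA of the sorted cells was run on Affymetrix mouse arrays, per the labels' protocols. The authors deposited log2 values of 22690 probe sets on 8 arrays, and RMA is the tool in the submitters' processing notes. RMA makes the arrays' distributions alike, so a shift of most genes would not be seen. Signal over background was not used here. Probe sets with 1 gene symbol (20393) were named from the platform annotation, updated through gene identifiers of the RefSeq GRCm38.p6 table for 20364 of them, and probe sets with several symbols (691) or none (1606) were left out. The brightest probe set on average stood for its gene.

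Each difference came from a limma fit (limma 3.58.1, R 4.3.3) of all 8 arrays (group means, lmFit and eBayes, two-sided, 4 residual degrees of freedom), with Benjamini-Hochberg adjustment over 12394 genes and a threshold of 0.05. The fit was tested on simulated data. The members, lists and tests were chosen with earlier results of these data known. Every member could be named. The rule for fuller values covered the 5 highest and 5 lowest differences, the stalk, Rpl11, the paralogs with their parents, Rps6, Rps19 and the 5 widest ranges, and up to 4 genes of each pathway list by p; some of the members it covers are given by range, difference or count alone. Rps3a1, Rpl4, Rpsa, Rpl35, Rps9 and the brighter probe sets were singled out after their values were seen. Pathway and marker lists were counted and summed without a test. Alternatives covered normalization, brightness, probe-set choice, the eBayes prior, the replicate number as a block, the arrays fitted, the label of emigrants oil 1 and each array left out, and probe sets with several symbols were added after seeing the data.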

Additional observations from a re-analysis of the deposited data

How the results depend on the processing

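The median difference of the 48 genes between emigrants and thymocytes, -0.33, lay between -0.41 and -0.26 under every alternative fit run and between -0.38 and -0.28 with each array left out, and the TCDD medians stayed within 0.1 of 0. The number of members past the threshold was 0, and became 1 with brighter genes only, with the replicate block over all arrays, and with the Treatment field of emigrants oil 1, in each case Rps6 (-0.91, -0.91 and -0.81); with each array left out it was 0 to 1 (Rpl22l1, -1.65, without emigrants TCDD 1). The replicate block within source gave 19 members for both treatments averaged, 8 with oil and 5 with TCDD. Arrays of the same number deviated together in each source (r = 0.759 in thymocytes, 0.495 in emigrants, 2 pairs), but the labels give the number no meaning. The count of all genes past the threshold was 18 and became 96 with brighter genes only, 69 with probe sets averaged, 200 with the block over all arrays, 1928 with the block within source, 75 with the Treatment field and 0 to 60 with each array left out (60 without emigrants TCDD 1; 0 without any 1 of the thymocyte arrays; 2 and 3 without emigrants TCDD 2 and emigrants oil 1). The cause was not tested. With oil alone it was 0 and became 1 with probe sets averaged, 819 with the block within source and 3 with the Treatment field. With TCDD alone it was 0 and became 2 with quantile normalization repeated, 1 with the trend and robust prior, 462 with the block within source, 18 with the Treatment field and 0 to 10 with each array left out. The TCDD counts, 0 in each comparison, became 1 in thymocytes and 1 over both sources with the block within source, 1 in emigrants and 1 for the difference of the TCDD differences with the Treatment field, 0 to 2 in emigrants and 0 to 1 over both sources with each array left out. Single members turned sign. With probe sets of several symbols, Rps6 became 0.041 in thymocytes, Rpl27a 0.144 and Rpl14 0.198 in emigrants, and Rpl37 -0.169 between sources. With the Treatment field, emigrants gave 0.383 for Rpl12, 0.075 for Rps3a1, -0.025 for Rpl41 and -0.300 for Rps14. With each array left out, the TCDD difference in thymocytes ran from -0.791 to 0.225 for Rpl14, -0.559 to 0.011 for Rpl8, -0.332 to 0.085 for Rpl7a, -0.082 to 0.441 for Rpl27a, -0.043 to 0.440 for Rpl39 and -0.249 to 0.767 for Rpl22. In emigrants it ran from -1.347 to 0.023 for Rpl22l1, -1.271 to 0.038 for Rpl27a, -1.154 to 0.245 for Rpl12, -0.968 to 0.119 for Rps3a1 and -0.109 to 0.767 for Rps14; each of these 5 turned without emigrants TCDD 2. Between sources it ran from -0.155 to 0.355 for Rpl37, -0.034 to 0.319 for Rpl3l, -0.033 to 0.382 for Rps18 and -0.343 to 0.165 for Rpl22. Of 38 member differences followed, 27 moved by over 1.5 times or turned with some array left out, 9 of 10 for TCDD in thymocytes, 8 of 10 for TCDD in emigrants and 10 of 18 between sources. Fits of only the arrays compared use all 8 arrays for the averaged and interaction results and were not run there.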
